A study of Homo sapiens with 6 samples.

Results

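Iron handling genes were examined in SNU16 cells, a human gastric carcinoma line, after knockdown of ENO1, a glycolytic enzyme that can also bind RNA. The set was listed by name and holds 10 genes: the iron regulatory proteins ACO1 and IREB2, the importers TFRC, SLC11A2 and SLC39A14, the ferritin subunits FTH1 and FTL, the ferritin cargo receptor NCOA4, the exporter SLC40A1 and the heme-degrading enzyme HMOX1. Of these, 9 were found among the 30716 genes of the expression table. The expression of SLC40A1, whose product ferroportin exports iron from cells, was not analysed here. RNA was sequenced from 3 libraries of cells carrying a short hairpin RNA against ENO1 (shENO1) and 3 libraries of cells carrying the control hairpin (shcon). Both groups were grown in RPMI-1640 medium with fetal bovine serum, penicillin and streptomycin, and shENO1 cells had been infected with lentivirus and selected with puromycin. The paper describes shcon cells as stable expressers too, but does not describe their infection and selection separately. The hairpin sequences are not used here, a single cell line was used, and no label states that the replicates came from separate cultures, so the p-values measure only the spread between these libraries, which may be technical. Expression is given in FPKM, which scales the fragments of a gene by its transcript length and by the depth of the library.

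Iron regulatory protein 1, the product of ACO1, carries an iron-sulfur cluster and works as a cytosolic aconitase when iron is ample; without the cluster it binds RNA hairpins named iron responsive elements. Iron regulatory protein 2, the product of IREB2, binds the same hairpins and is degraded when iron is ample. A hairpin in the 5′ untranslated region (UTR), as in ferritin mRNAs, lets the bound protein block translation, whereas hairpins in the 3′ UTR, as in the transferrin receptor mRNA, protect the mRNA from decay. The ferritin and HMOX1 genes are also transcribed under the control of the factors NRF2 and BACH1, and an mRNA level reports neither translation nor iron content.

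Hairpins that tie measured genes to the iron regulatory proteins were located in GENCODE 29 transcripts (GRCh38). They are shown because they mark mRNAs that these proteins may bind, and a gene without a match may still be bound. The search read 1 protein-coding transcript per gene, on its own strand only, for an unpaired C, 5 stem bases, the loop CAGTGN and 5 bases that pair with the stem, G:T pairs allowed. An element that departs from this pattern would be missed, so the matches in a gene may not be all of its elements. Each sequence below runs 5′ to 3′ over 30 bases, with the loop in capitals. Letters after TFRC give the order of its matches in this search and are not established names of elements. FTH1 carried 1 match in the 5′ UTR at chr11:61967573-61967602 on the minus strand, FTL carried 1 in the 5′ UTR at chr19:48965335-48965364 on the plus strand, and TFRC carried 4 in the 3′ UTR on the minus strand, at chr3:196050978-196051007, chr3:196050574-196050603, chr3:196050509-196050538 and chr3:196050462-196050491, given below in this order as A to D.
FTH1 5′ UTR: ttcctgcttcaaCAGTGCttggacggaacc
FTL 5′ UTR: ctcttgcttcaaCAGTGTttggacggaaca
TFRC 3′ UTR A: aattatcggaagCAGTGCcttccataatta
TFRC 3′ UTR B: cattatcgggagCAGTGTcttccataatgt
TFRC 3′ UTR C: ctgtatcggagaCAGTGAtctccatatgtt
TFRC 3′ UTR D: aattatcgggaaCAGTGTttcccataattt
FTH1 and FTL thus carry the element on the side where binding blocks translation, and TFRC on the side where binding protects the mRNA. The transcript read for SLC40A1 also held 1 match in the 5′ UTR, at chr2:189580660-189580689 on the minus strand. Across the transcriptome, 22 of 19684 genes (0.112%) held a match in the 5′ UTR and 96 (0.488%) in the 3′ UTR. No match was found in the transcripts read for ACO1, IREB2, SLC11A2, NCOA4 and HMOX1, which says only that these letters are not in those transcripts, and SLC39A14 was not searched. For SLC11A2 the transcript read had 4348 bases, whereas the exons of all its transcripts cover 10145 bases. Elements in its other transcripts would not have been seen.

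ENO1 itself, the target of the hairpin, had 99.5, 84.9 and 91.1 FPKM in shENO1 libraries 1 to 3, against 323, 312 and 386 FPKM in shcon libraries 1 to 3, so every shENO1 library lay below every shcon library. Its mean stood at 27.0% of that in shcon (log2 fold change −1.88, limma adjusted p = 0.000425). Library depth, recovered from the steps between low FPKM values, was 15568200 to 16962850 fragments. A mean of 0.5 FPKM or more was required for the test, and of the 15181 genes left 2289 were higher and 2188 lower in shENO1 at a Benjamini-Hochberg adjusted p under 0.05, tested with limma on log2(FPKM + 1), a scale that understates the change of low genes. Across 7441 genes that averaged 5 FPKM or more and had a known GC content, log2 fold changes correlated negatively with that content (Spearman rho across genes −0.699) and positively with exon length (rho 0.362), a description only, since genes are not independent replicates. Values after removal of smooth trends over GC content and exon length are therefore also given for the genes described below, where they bear on a call or moved the value by over 1.5 times. The library shcon 3 had the lowest mean correlation with its own group (0.977, against 0.982 to 0.984 in the other libraries). Of 10 gastric epithelial markers 9 were in the table and 6 had a mean of at least 0.5 FPKM. The markers in the table summed to 262 to 302 FPKM in shENO1 and 486 to 617 FPKM in shcon. The keratins KRT8 and KRT18, both lower in shENO1, carried that difference. MUC1, at means of 66.9 FPKM in shENO1 and 70.6 FPKM in shcon, was not called, nor was CLDN4, at 8.11 and 7.18 FPKM. With both trends removed MUC1 passed the test as higher (log2 fold change 0.66, limma adjusted p = 0.0298), whereas KRT8 and KRT18 stayed lower at −1.1 and −0.86. EPCAM was at 0.819 to 0.97 FPKM in shENO1 and 1.09 to 1.59 FPKM in shcon. CDH1 had means of 0.678 and 0.947 FPKM, and neither EPCAM nor CDH1 was called. KRT19, TFF1 and CDX2 stayed below a mean of 0.5 FPKM. Of the erythroid and macrophage markers in the table, 0 of 4 and 0 of 5 reached a mean of 0.5 FPKM. Of 4 fibroblast markers 3 did, and the list summed to 14.2 to 14.9 FPKM in shENO1 and 21.5 to 28.3 FPKM in shcon. The part of these marker differences in the results below was not tested. In bulk libraries of a single cell line, fewer expressing cells and less RNA per cell cannot be told apart.

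The iron importer SLC39A14 and the iron regulatory protein gene IREB2 were higher in shENO1, FTH1 and HMOX1 were lower, and ACO1, TFRC, SLC11A2, FTL and NCOA4 did not pass the test. Thus 2 of 9 genes rose, where 15.1% of all tested genes were called higher, and 2 of 9 fell, where 14.4% were called lower. The called share was 44.4%, beside 29.5% of all genes tested, and the median log2 fold change was 0.03, the same as over all genes. A set of 9 genes is too small to read a difference from these shares. The groups did not overlap in 5 of the 9 genes, 2 higher and 3 lower, which held for 46.6% of all genes tested (25.0% higher and 21.5% lower).

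**Figure D1:**
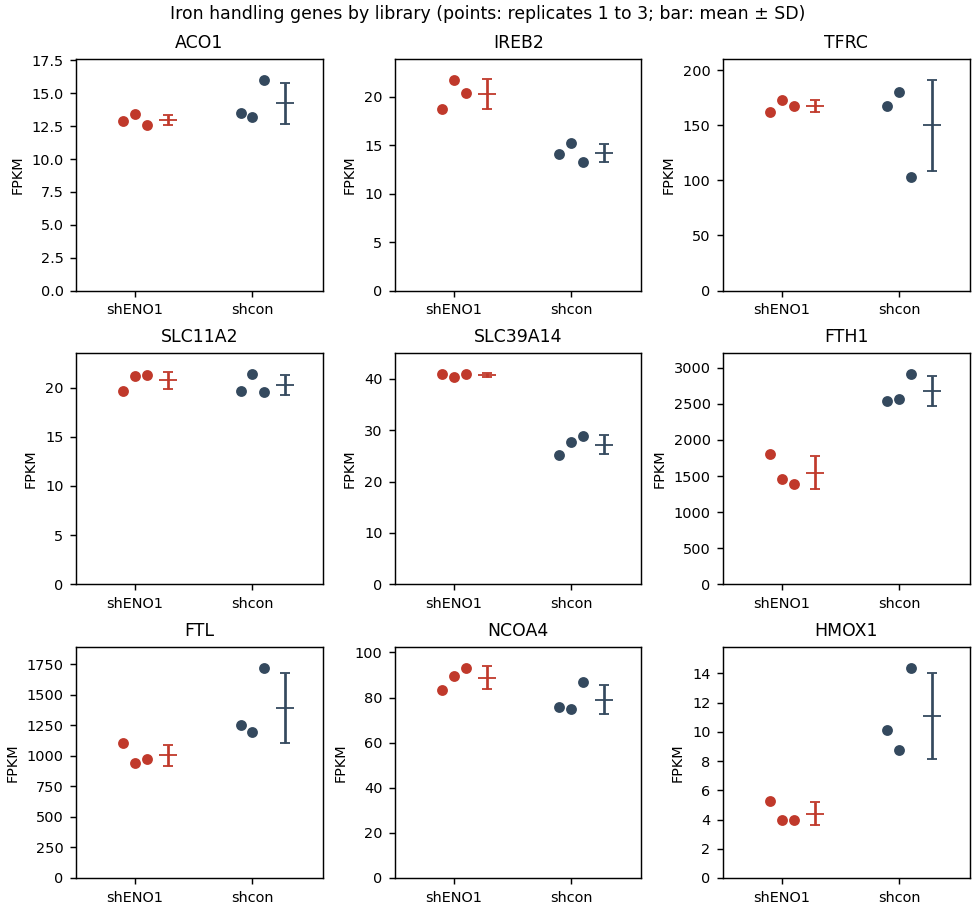
FPKM of 9 iron handling genes in each library (y axis, from 0; points are replicates 1 to 3 of shENO1, left, and shcon, right; horizontal marks and bars are mean ± SD, n = 3). The groups do not overlap for IREB2, SLC39A14, FTH1, FTL and HMOX1, and shcon 3 lies apart from the other shcon libraries for TFRC at 103 FPKM.

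ACO1 mRNA was not detectably changed (gene positions here and below are those of the table, on GRCh38). ACO1 (ENSG00000122729, chr9:32384603-32454769, plus strand) had 12.9, 13.4 and 12.6 FPKM in shENO1 libraries 1 to 3, against 13.5, 13.2 and 16.0 FPKM in shcon libraries 1 to 3. The groups overlapped, and the highest value was that of shcon 3. Means were 12.9 ± 0.398 FPKM in shENO1 and 14.3 ± 1.55 FPKM in shcon (SD, n = 3 each), giving a log2 fold change of −0.13 (SE 0.10, 95% interval −0.36 to 0.10) and an adjusted p from limma of 0.344. Without shcon 3 the log2 fold change was −0.05. After removal of the GC content and exon length trends it was −0.31 (adjusted p = 0.0399, limma), which passed the test, but with replicate number as a block in that fit it did not.

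IREB2 (ENSG00000136381, chr15:78437431-78501453, plus strand), the other iron regulatory protein gene, was higher in shENO1. It had 18.7, 21.7 and 20.4 FPKM in shENO1, against 14.1, 15.2 and 13.3 FPKM in shcon. Every shENO1 library lay above every shcon library. Means were 20.3 ± 1.50 FPKM in shENO1 and 14.2 ± 0.951 FPKM in shcon (log2 fold change 0.49, SE 0.09, limma adjusted p = 0.01). IREB2 has a GC content of 38.3%, at the 9.33 percentile of the 7441 genes, and with the GC trend removed its log2 fold change was 0.15 (adjusted p = 0.323, limma) and with both trends removed 0.07 (adjusted p = 0.416). Leaving out shENO1 2 also ended the call (0.44, adjusted p = 0.055).

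The balance of ACO1 and IREB2 mRNA, both measured per length, differed between the groups within each library. The FPKM ratio of ACO1 to IREB2 was 0.687, 0.615 and 0.616 in shENO1, against 0.963, 0.871 and 1.21 in shcon, and the groups did not overlap. The mean log2 ratio was −0.61 ± 0.09 in shENO1 and 0.01 ± 0.23 in shcon (SD, n = 3 each), a difference of −0.62 with an exact two-sided permutation p of 0.1, the smallest that 3 libraries against 3 allow. After removal of both trends the difference was −0.38.

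Among importers, TFRC (ENSG00000072274, chr3:196027183-196082096, minus strand), the receptor that takes up transferrin-bound iron, was high in both groups and did not pass the test. It had 162, 173 and 168 FPKM in shENO1, against 168, 180 and 103 FPKM in shcon. The shENO1 libraries were close to shcon 1 and shcon 2, and shcon 3 alone was low. The log2 fold change was 0.19 (SE 0.20, 95% interval −0.26 to 0.65, limma adjusted p = 0.48), and it was −0.05 without shcon 3 and −0.11 with both trends removed. SLC11A2 (ENSG00000110911, chr12:50979401-51028566, minus strand), the divalent metal transporter DMT1, which moves ferrous iron out of endosomes, had 19.7, 21.2 and 21.3 FPKM in shENO1, against 19.7, 21.4 and 19.6 FPKM in shcon. These values overlapped fully, with a log2 fold change of 0.03 (SE 0.08, 95% interval −0.16 to 0.23). With both trends removed SLC11A2 was at −0.25 and passed the test (limma adjusted p = 0.0123).

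SLC39A14 (ENSG00000104635, chr8:22367278-22434129, plus strand), the transporter ZIP14, which carries iron not bound to transferrin as well as zinc and manganese, was higher in shENO1. SLC39A14 had 41.0, 40.4 and 40.9 FPKM in shENO1, against 25.1, 27.7 and 28.8 FPKM in shcon. All shENO1 libraries lay within 1 FPKM of each other and above all shcon libraries. Means were 40.8 ± 0.345 FPKM in shENO1 and 27.2 ± 1.91 FPKM in shcon, a ratio of 1.50 (log2 fold change 0.57, SE 0.08, limma adjusted p = 0.00507). Its GC content of 47.7% lay near the median of the 7441 genes (48.2%), and it was called higher under each of the 18 alternative settings, with log2 fold changes of 0.46 to 0.64.

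Ferritin stores iron in a shell of heavy and light subunits, of which the heavy chain FTH1 oxidizes ferrous iron and the light chain FTL aids mineral formation. FTH1 (ENSG00000167996, chr11:61959718-61967634, minus strand) was among the most abundant mRNAs in every library, ranking 15 of 30716 in all shENO1 libraries and 11 in all shcon libraries. It had 1804, 1454 and 1386 FPKM in shENO1, against 2543, 2562 and 2916 FPKM in shcon. The groups were well apart, with the highest shENO1 library far below the lowest shcon library. Means were 1548 ± 224 FPKM in shENO1 and 2673 ± 210 FPKM in shcon, so shENO1 stood at 57.9% of shcon (log2 fold change −0.79, SE 0.13, limma adjusted p = 0.00588). With both trends removed the log2 fold change was −0.63 (adjusted p = 0.0112, limma). The call was lost when low genes were kept in the fit (adjusted p = 0.17).

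FTL (ENSG00000087086, chr19:48965309-48966879, plus strand) had 1103, 938 and 972 FPKM in shENO1, against 1255, 1196 and 1721 FPKM in shcon. The groups did not overlap, but shENO1 1 lay close to shcon 2 and the shcon spread was set by shcon 3. Means were 1004 ± 87.4 FPKM in shENO1 and 1391 ± 288 FPKM in shcon, so shENO1 stood at 72.2% of shcon, and the log2 fold change was −0.45 (SE 0.15, limma adjusted p = 0.0569), just short of the threshold. FTL was called lower at the same −0.45 when genes had to average 5 FPKM (adjusted p = 0.0265, limma) and in limma-voom on estimated fragments (adjusted p = 0.0218). Leaving out shcon 3 gave −0.29 with an adjusted p of 0.0488 by limma, quantile normalization gave 0.12, and removal of both trends left a log2 fold change near 0 (adjusted p = 0.987). FTL is GC-rich at 56.3%.

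Within libraries, the balance of heavy to light chain mRNA was lower in shENO1. The FPKM ratio of FTH1 to FTL was 1.63, 1.55 and 1.43 in shENO1, against 2.03, 2.14 and 1.69 in shcon. The lowest shcon value, of shcon 3, was near the highest shENO1 value, but the groups did not overlap. On the log2 scale the mean ratio was 0.62 ± 0.10 in shENO1 and 0.96 ± 0.18 in shcon, a difference of −0.34 (exact permutation p = 0.1, two-sided, the smallest possible). The ratio of TFRC to FTH1, which sets an uptake mRNA against a storage mRNA, was 0.0895, 0.119 and 0.121 in shENO1, against 0.0659, 0.0703 and 0.0354 in shcon. Every shENO1 ratio was the higher, and shcon 3 was again the lowest. The mean log2 ratio differed by 0.99 (exact permutation p = 0.1, two-sided). After removal of both trends the FTH1 to FTL difference was −0.63 and the TFRC to FTH1 difference 0.52.

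**Figure D2:**
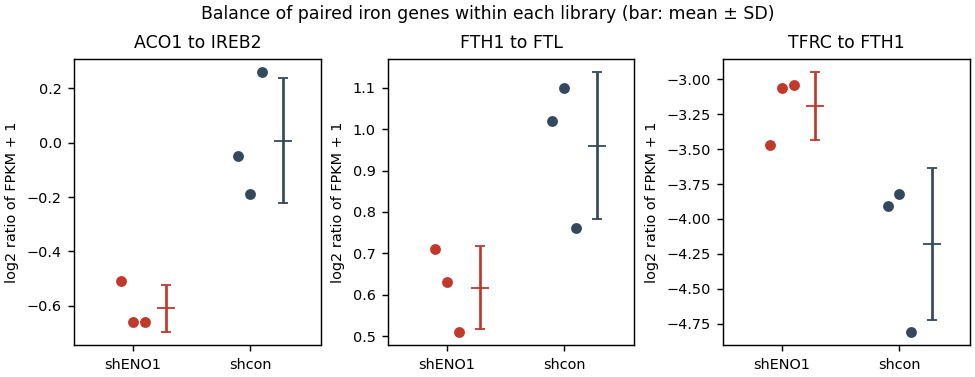
Log2 ratio of FPKM + 1 in each library for ACO1 to IREB2, FTH1 to FTL and TFRC to FTH1 (points are libraries, shENO1 left and shcon right; bars are mean ± SD, n = 3; the y axes do not start at 0). In all 3 panels the groups do not overlap, with mean differences of −0.62, −0.34 and 0.99. For single genes the groups did not overlap in 46.6% of all genes tested, and that share was not computed for ratios.

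Ferritin has processed pseudogenes whose reads the counting could share with the parent genes, so ferritin levels carry that uncertainty. The table had 17 rows named FTH1P, of which 8 were tested and 4 (FTH1P2, FTH1P7, FTH1P8 and FTH1P23) were lower in shENO1, beside 14.4% of all genes tested. Summed, these rows held 67.1 to 83.6 FPKM in shENO1 and 134 to 148 FPKM in shcon, which is 4.62% to 4.95% of the FTH1 level in shENO1 and 5.07% to 5.73% in shcon. FTL pseudogenes stayed under 1% of FTL in each library. The gene overlapping FTH1 on the other strand, BEST1, averaged 0.287 FPKM.

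NCOA4 (ENSG00000266412, chr10:46005088-46030623, minus strand), the receptor that delivers ferritin to autophagosomes for iron release, had 83.2, 89.6 and 93.3 FPKM in shENO1, against 75.8, 74.8 and 86.7 FPKM in shcon. The groups overlapped through shcon 3. The log2 fold change was 0.17 (SE 0.09, 95% interval −0.05 to 0.39, limma adjusted p = 0.219), 0.33 after quantile normalization (adjusted p = 0.021, limma) and −0.03 with both trends removed.

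HMOX1 (ENSG00000100292, chr22:35380361-35394214, plus strand), which frees iron from heme and is induced by heme and oxidative stress, had the largest fold change of the 9 genes on the deposited scale. HMOX1 had 5.29, 3.94 and 3.98 FPKM in shENO1, against 10.1, 8.74 and 14.4 FPKM in shcon. No shENO1 library reached the lowest shcon library, and shcon 3 was the highest. Means were 4.40 ± 0.767 FPKM in shENO1 and 11.1 ± 2.94 FPKM in shcon, so shENO1 stood at 39.7% of shcon. The log2 fold change was −1.14 (SE 0.18, limma adjusted p = 0.00586). With both trends removed it was −0.76 (adjusted p = 0.0138, limma), and the call held under each of the 18 alternative settings, with log2 fold changes of −1.31 to −0.76.

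**Figure D3:**
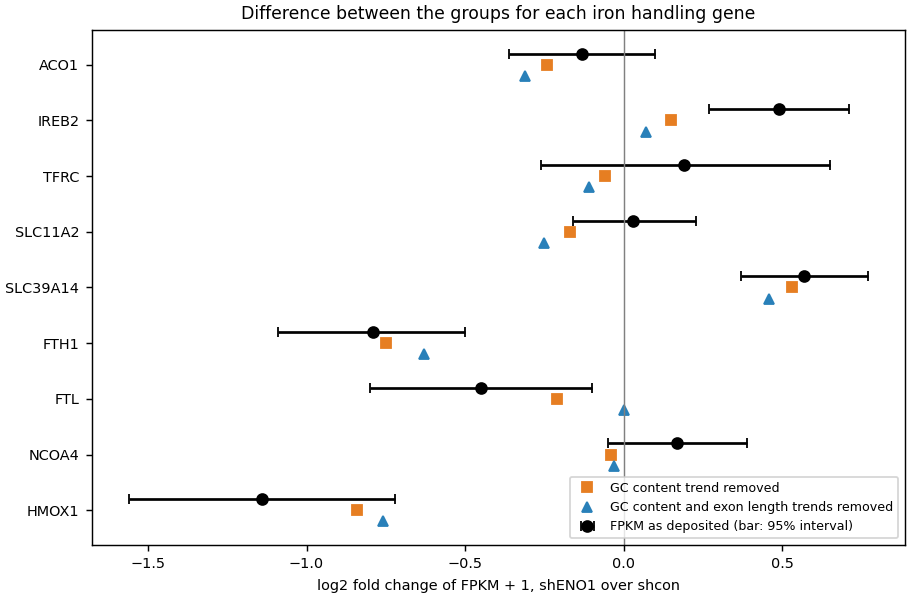
Log2 fold change of FPKM + 1, shENO1 over shcon, for each iron handling gene (circles with 95% intervals, n = 3 libraries per group; squares after removal of the GC content trend; triangles after removal of the GC content and exon length trends). SLC39A14, FTH1 and HMOX1 stay on their side of 0, IREB2 moves to 0.07, FTL moves to near 0, and TFRC, SLC11A2 and NCOA4 turn below 0.

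After removal of the GC trend alone, 1 of the 9 genes (SLC39A14) was called higher, beside 10.5% of all genes, and 2 (FTH1 and HMOX1) were called lower, beside 9.11%, together 19.6% of all genes. After removal of both trends, 1 (SLC39A14) was called higher, beside 12.0% of all genes, and 4 (ACO1, SLC11A2, FTH1 and HMOX1) lower, beside 10.2%, together 22.2% of all genes. SLC39A14, FTH1 and HMOX1 passed the test in all 3 fits.

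**Figure D4:**
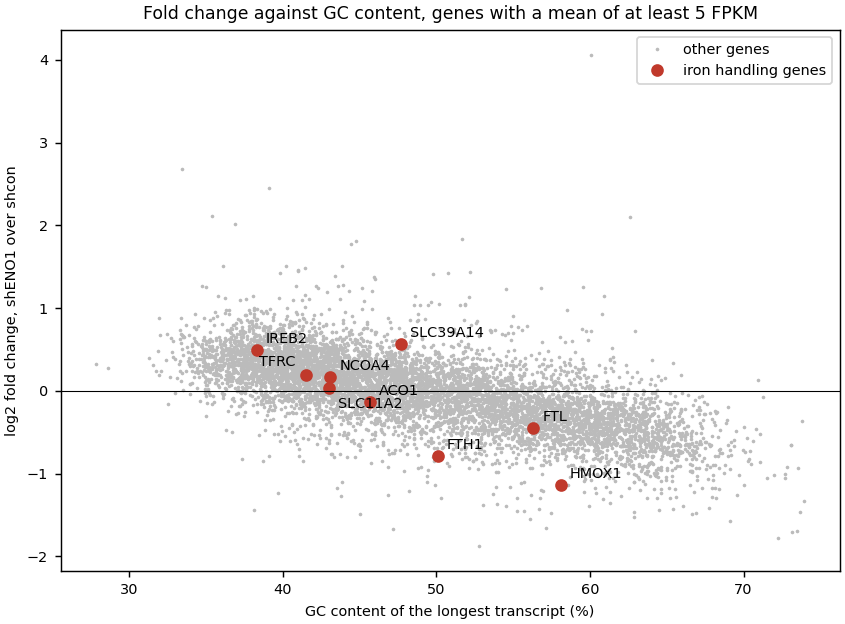
Log2 fold change, shENO1 over shcon, against GC content of the longest transcript in percent for 7441 genes that averaged 5 FPKM or more (grey) and the 9 iron handling genes (red). Fold changes decline with GC content; IREB2, TFRC, NCOA4 and FTL lie within the band of other genes, SLC39A14 lies near its upper edge, and FTH1 and HMOX1 near its lower edge.

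Regulators of ferritin and heme gene transcription were also measured. Of 7 genes 7 were called, 5 higher and 2 lower, beside 15.1% of all tested genes called higher and 14.4% lower, with a median log2 fold change of 0.48 against 0.03 over all genes. BACH1, a heme-sensing repressor of HMOX1 and the ferritin genes, had 17.9, 20.3 and 20.7 FPKM in shENO1, against 9.50, 10.2 and 8.98 FPKM in shcon. All shENO1 libraries were well above all shcon libraries. The log2 fold change of BACH1 was 0.97 (SE 0.09, limma adjusted p = 0.00205), and 0.60 with both trends removed (adjusted p = 0.00426, limma). NFE2L2, which encodes the activator NRF2 of the same genes, had 23.5, 25.3 and 27.5 FPKM in shENO1, against 15.4, 16.9 and 19.1 FPKM in shcon. It was also higher in every shENO1 library, with log2 fold changes of 0.55 (adjusted p = 0.0105, limma) and 0.39 with both trends removed. KEAP1, which targets NRF2 for degradation, was lower (−0.49, adjusted p = 0.0221, limma), as was MAFK, a small MAF partner of both factors (−0.79, adjusted p = 0.0202), but with both trends removed neither passed the test, at −0.12 for KEAP1 and −0.34 for MAFK. The other small MAF genes of the list, named after their values were seen, were higher: MAFG at 0.48 (adjusted p = 0.00617, limma) and MAFF at 0.49 (adjusted p = 0.0368), and at 0.70 and 0.86 with both trends removed, where both passed the test. In that fit 4 of the 7 genes were higher and 0 lower, beside 12.0% and 10.2% of all genes. Leaving out shENO1 2 or shENO1 3 left 3 higher and 0 lower, leaving out shcon 1 left 0 lower, and leaving out shcon 2 left 3 higher and 1 lower, whereas BACH1 was called under every alternative.

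Other mRNAs with a known iron responsive element were few: of 4 tested, 3 were higher and 0 lower, beside 15.1% and 14.4% of all genes, with a median of 0.42. Removal of both trends gave 2 higher and 0 lower, with a median of 0.26. CDC42BPA, a kinase of the cytoskeleton, was at 8.96 ± 1.08 FPKM in shENO1 and 4.98 ± 0.819 FPKM in shcon (log2 fold change 0.74, limma adjusted p = 0.0078, and 0.44 with both trends removed). EPAS1, the hypoxia factor HIF-2α, was at 66.5 ± 4.34 FPKM in shENO1 and 47.9 ± 3.42 FPKM in shcon (0.46, adjusted p = 0.0115, limma), and stayed at 0.50 with both trends removed. CDC14A, a phosphatase, was at 1.92 FPKM in shENO1 and 1.24 FPKM in shcon (0.39, adjusted p = 0.0231, limma), and 0.08 with both trends removed. Without shENO1 2 only 1 of the 4 genes was called higher, and EPAS1 then had an adjusted p of 0.0586 (limma).

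Of 22 other genes of iron uptake, export and sensing, 1 was higher and 9 were lower, beside 15.1% and 14.4% of all genes, with a median log2 fold change of −0.28. LCN2, a siderophore-binding protein, was at 3.16 ± 0.405 FPKM in shENO1 and 8.69 ± 2.27 FPKM in shcon (−1.20, limma adjusted p = 0.00534, and −0.78 with both trends removed). STEAP4, a metalloreductase, was at 2.23 ± 0.187 FPKM in shENO1 and 4.21 ± 0.814 FPKM in shcon (−0.68, adjusted p = 0.0103, limma, and −1.08 with both trends removed). PCBP1, an iron chaperone that loads ferritin, was at 10.3 ± 3.97 FPKM in shENO1 and 19.2 ± 3.85 FPKM in shcon (−0.87, adjusted p = 0.0332, limma), and its relative PCBP4 was at −0.82. With both trends removed PCBP4 passed the test at −0.45, whereas PCBP1 at −0.52 did not (adjusted p = 0.154, limma). The gene that rose was SLC39A8, which encodes ZIP8, the closest relative of ZIP14, at 22.3 ± 1.32 FPKM in shENO1 and 15.3 ± 0.468 FPKM in shcon (0.51, adjusted p = 0.00643, limma, and 0.32 with both trends removed). SLC39A8 was named after its value was seen. Removal of both trends gave 2 higher and 8 lower of the 22 genes, with a median of −0.16. With a replicate block 3 were higher, without shcon 3 there were 4 higher, and without shENO1 2, shENO1 3 or shcon 1 there were 5 lower.

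Iron-sulfur cluster assembly supplies the cluster that ACO1 protein carries. Of 27 genes, 0 were higher and 7 lower, that is 25.9% lower, beside 15.1% of all genes called higher and 14.4% lower, with a median of −0.04. Removal of both trends gave 1 higher and 6 lower, with a median of −0.12. BOLA1, a mitochondrial assembly factor, was at 4.54 ± 0.427 FPKM in shENO1 and 10.2 ± 1.72 FPKM in shcon (−1.01, limma adjusted p = 0.00364), and its relative BOLA3 was at −0.65. NUBP2, a scaffold of the cytosolic pathway, was at −0.84 and FDXR, which feeds electrons to the mitochondrial pathway, at −0.83, both called lower. After removal of both trends these 4 were still called lower, at −0.50 to −0.40. Without shENO1 2 or shENO1 3 the list had 3 genes called lower and without shcon 1 it had 4, and BOLA3 lost its call without either of these shENO1 libraries (−0.59 and −0.62). With a replicate block 2 genes were called higher, and without shcon 3 there were 3.

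Heme synthesis, transport and breakdown had 20 tested genes, of which 1 was higher and 5 lower, beside 15.1% and 14.4% of all genes, with a median of −0.15. Removal of both trends gave 1 higher and 4 lower, with a median of −0.10. BLVRB, a biliverdin reductase, was at 31.8 ± 6.60 FPKM in shENO1 and 53.3 ± 2.72 FPKM in shcon (−0.75, limma adjusted p = 0.00992). HMOX2, the constitutive heme oxygenase, was at −0.44, and the heme synthesis enzymes PPOX and UROD at −0.44 and −0.43, all called lower. BLVRB passed the test after removal of both trends at −0.29, whereas HMOX2 (−0.19), PPOX (−0.11) and UROD (−0.26) did not. The count of lower genes was 2 without shENO1 2, 1 without shENO1 3, 2 without shcon 1 and 3 without shcon 2, and that of higher genes was 0 without any of these and 2 without shcon 3.

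Genes of lipid peroxidation and ferroptosis, an iron-dependent form of cell death, held the largest fold changes of the 6 lists. Of 17 tested, 6 were higher and 4 lower, beside 15.1% and 14.4% of all genes, with a median of 0.07. Removal of both trends gave 5 higher and 2 lower, and with a replicate block in that fit 1 lower. SLC7A11, the cystine importer that feeds glutathione synthesis, had 23.7, 28.5 and 26.7 FPKM in shENO1, against 4.93, 5.05 and 5.99 FPKM in shcon. The groups were far apart (log2 fold change 2.11, SE 0.11, limma adjusted p = 0.000241). CHAC1, which degrades glutathione, was at 10.7 ± 2.27 FPKM in shENO1 and 1.81 ± 1.08 FPKM in shcon (2.10, adjusted p = 0.00376, limma), and PTGS2, the cyclooxygenase COX-2, at 14.4 ± 0.629 FPKM in shENO1 and 2.80 ± 0.176 FPKM in shcon (2.01, adjusted p = 0.000139, limma). GPX4, the peroxidase that detoxifies lipid peroxides, was at 64.3 ± 8.21 FPKM in shENO1 and 109 ± 5.15 FPKM in shcon (−0.76, adjusted p = 0.00462, limma). After removal of both trends SLC7A11, CHAC1 and PTGS2 were at 1.65, 2.68 and 1.64, and GPX4 was at −0.18 (adjusted p = 0.0295, limma), and with a replicate block in that fit GPX4 no longer passed (adjusted p = 0.0501, limma). The count of lower genes was 1 without shENO1 2 and 2 without shENO1 3 or shcon 1. These lists were drawn up with results of the same libraries known, so their counts are a description and not independent evidence of a direction.

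**Figure D5:**
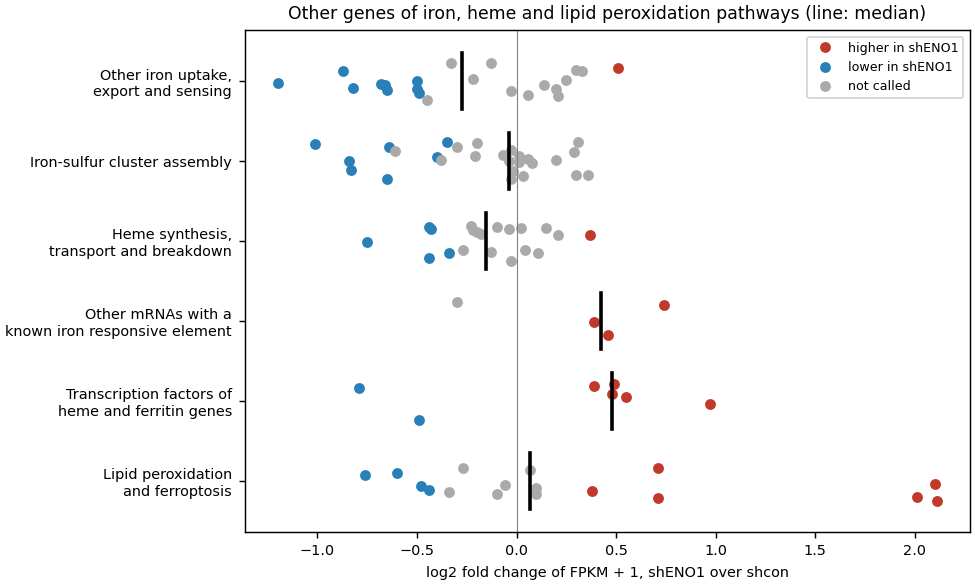
Log2 fold change of FPKM + 1, shENO1 over shcon, for each tested gene of 6 iron, heme and lipid peroxidation lists (points; red higher, blue lower and grey not called at a limma adjusted p under 0.05; black lines are list medians; vertical scatter has no meaning). Transcription factors of heme and ferritin genes, with the adaptor KEAP1 among them, have the highest median, 0.48, and other iron uptake, export and sensing genes the lowest, −0.28.

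The genes whose FPKM followed ACO1 most closely over the 6 libraries, among 7302 genes that averaged 5 FPKM or more, were EIF4A3 (Pearson r = 0.9953), NABP2 (0.9922), TMSB4XP8 (0.9858), ATP5PO (0.9838) and SRA1 (0.9832). The 6 points share groups and depth, and shcon 3 is the highest of them for ACO1, so the r values are a description of these libraries only.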

How the data were processed

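SNU16 cells were profiled by bulk RNA sequencing in 3 shENO1 and 3 shcon libraries. The deposited table gives FPKM per gene and library, made by the authors on GRCh38. The submitters' processing notes name cutadapt, featureCounts and MultiQC, and the aligner, annotation release and strand setting are not stated in the sources consulted. FPKM remove total depth and transcript length but not composition or GC effects. From these values, log2(FPKM + 1) of the 15181 genes averaging 0.5 FPKM or more was tested with limma 3.58.1 (R 4.3.3; eBayes with a trend) and Benjamini-Hochberg adjustment at 0.05. Ratios between genes were tested by exact permutation (scipy 1.17.1). Depth was estimated from FPKM steps; 79.9% to 80.5% of low values came within 0.05 of a whole fragment, so FPKM were used for the main test and the estimated fragments only for a limma-voom alternative. Trends over GC content and exon length (GENCODE 29) were splines with 4 degrees of freedom. They were fitted per library on 7358 genes averaging 5 FPKM or more, leaving out the members, ENO1 and the list genes. The fitted trends were then removed from the 15031 tested genes with a value.

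The members and lists were chosen with earlier results of these data known. Genes named are the members, ENO1, up to 4 called genes with the largest change per list, the 5 genes nearest to ACO1 and ferritin pseudogenes where reads may be shared. Apart from the members, 1 gene of the pathway lists is counted but not reported here by name. Alternatives were other pseudocounts, filters, scalings, estimators, trend removal, a replicate block and leaving out each library. Libraries with the same number deviated together (correlations 0.23, 0.118 and 0.256 over 15181 genes), but no label states a shared culture or day. The main fit and the permutation of ratios therefore took the libraries as unpaired. Replicate number entered only as a block in the alternatives, and p-values of the unpaired tests do not account for a pairing.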

Additional observations from a re-analysis of the deposited data

How the results depend on the processing

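Of the 9 measured genes, SLC39A14 and HMOX1 kept direction and call under all 18 alternatives. IREB2 lost its call, leaving 1 gene called higher, with the GC trend removed, with both trends removed (also with a replicate block) and without shENO1 replicate 2; the cause was not tested. Genes called lower numbered 1 with no filter on low values and 4 with both trends removed, where ACO1 was at −0.31 (adjusted p = 0.0399, limma). Signs turned for TFRC (−0.06 with the GC trend removed, −0.11 with both trends removed with or without the block, −0.05 without shcon replicate 3, the low end of −0.05 to 0.34 over single libraries left out), SLC11A2 (−0.00143 with median-of-ratios scaling, −0.17 with the GC trend removed, −0.25 with both trends removed with or without the block), FTL (0.12 with quantile normalization) and NCOA4 (−0.04 with the GC trend removed, −0.03 with both trends removed with or without the block). Over all genes, 1402 were higher and 1302 lower with no filter, 1369 were lower with the GC trend removed, and leaving out 1 library at a time gave 753 to 3028 higher and 756 to 2799 lower. The replicate block alone gave 2927 higher and 2711 lower and changed no call among the 9 genes. The 3 ratios kept their direction in each of 11 alternatives. The TFRC to FTH1 difference was 0.68 without shcon replicate 3 (exact permutation p = 0.2). Leaving out any 1 shENO1 library gave an exact permutation p of 0.2 for FTH1 to FTL. With 3 libraries per group taken as unpaired, permutation cannot go below 0.1.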
